A study of Homo sapiens with 6 samples.

Results

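FOXO1 and FOXO3 are forkhead transcription factors that act at the end of the PI3K and AKT pathway, and 8 further genes taken here with them are raised by FOXO factors when AKT activity is low: CCNG2, CDKN1B, BCL6, KLF2, BNIP3, TXNIP, IRS2 and PIK3IP1. The 10 genes were chosen by symbol, and all 10 had a row among the 20263 Ensembl genes of the count table. They were measured by RNA-seq in MV4-11, a human acute myeloid leukemia line with an internal tandem duplication in the receptor kinase gene FLT3, whose genotype the labels otherwise give as WT. Each of 3 groups, all sampled at 24 h, had 2 libraries: venetoclax with cyclosporine A (VEN+CSA), venetoclax alone at 100 nM (VEN), and cyclosporine A alone at 2.5 µM (CSA). The labels do not give the doses inside the combination, and the series' aim was to learn what CSA adds to VEN in cells with mutant FLT3. Venetoclax inhibits the survival protein BCL2, and CSA binds cyclophilins and inhibits calcineurin. All groups share the same line, so the values describe 1 cell line in culture, and no untreated group was used here. The labels are silent on whether replicates are separate cultures, and the p-values may rest on technical spread alone.

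When growth factor receptors activate PI3K, the kinase AKT phosphorylates FOXO proteins, which then bind 14-3-3 proteins and leave the nucleus. When AKT is inactive, FOXO proteins stay in the nucleus and bind the DNA letters GTAAACA or close variants, raising genes of cell cycle arrest, stress resistance, mitochondrial turnover and feedback onto insulin and PI3K signaling. FOXO activity is therefore set largely at the protein level, which RNA counts do not measure, and FOXO-responsive mRNAs are used in its place as a readout. In acute myeloid leukemia FOXO3 is known both as a tumor suppressor held inactive by AKT and as a factor that some leukemias need.

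The promoters of the 10 genes were searched for the FOXO consensus core GTAAACA and for CAAAACA, a variant from insulin response elements, each on both strands. The windows run from 250 bases before to 50 bases after each RefSeq start (GRCh38.p14), 16 windows in all, and every gene had at least 1. GTAAACA was found in 1 window each of TXNIP and PIK3IP1, and CAAAACA in 1 window of IRS2. TXNIP and PIK3IP1 each also had a window without GTAAACA. Of all 35116 promoter windows, 3.42% held GTAAACA and 4.92% held CAAAACA. The remaining 7 genes had neither in these windows, which says nothing of FOXO binding elsewhere. The 3 windows with a match are shown because they hold the letters that FOXO factors are known to read. Capitals mark the matches. In the TXNIP window GTAAACA begins 124 bases before the start, and the other capitals are 2 copies of CACGAG, the half-sites through which the glucose-sensing factors MondoA and MLX are known to act, a motif added after the sequence had been seen and held by 6.78% of all windows. It also occurred once each in windows of FOXO3 and BCL6. In the PIK3IP1 window TGTTTAC, the reverse complement of GTAAACA, begins 16 bases after the start. In the IRS2 window TGTTTTG, the reverse complement of CAAAACA, begins 40 bases before the start.
TXNIP promoter, chr1:145996530-145996829, minus strand: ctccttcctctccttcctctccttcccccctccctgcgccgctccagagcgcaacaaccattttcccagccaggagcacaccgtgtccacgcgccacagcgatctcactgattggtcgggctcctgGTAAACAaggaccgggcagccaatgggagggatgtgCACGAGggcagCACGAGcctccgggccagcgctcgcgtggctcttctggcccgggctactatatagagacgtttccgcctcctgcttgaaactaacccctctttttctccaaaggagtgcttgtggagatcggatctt
PIK3IP1 promoter, chr22:31292439-31292738, minus strand: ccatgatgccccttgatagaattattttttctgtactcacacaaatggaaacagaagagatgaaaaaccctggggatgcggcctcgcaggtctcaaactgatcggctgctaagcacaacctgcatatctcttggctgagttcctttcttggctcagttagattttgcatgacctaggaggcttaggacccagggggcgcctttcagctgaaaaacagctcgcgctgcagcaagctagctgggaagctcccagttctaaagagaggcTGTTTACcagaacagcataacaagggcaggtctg
IRS2 promoter, chr13:109786534-109786833, minus strand: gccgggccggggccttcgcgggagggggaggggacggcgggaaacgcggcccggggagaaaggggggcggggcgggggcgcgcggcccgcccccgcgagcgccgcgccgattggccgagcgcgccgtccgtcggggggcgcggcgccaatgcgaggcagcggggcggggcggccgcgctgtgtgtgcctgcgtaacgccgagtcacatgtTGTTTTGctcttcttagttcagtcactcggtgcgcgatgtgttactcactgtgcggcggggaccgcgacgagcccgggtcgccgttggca

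Total counts per library were 26567900 to 30738957. VEN replicate 2 stood apart, with 41.5% of its counts from mitochondrially encoded genes against 7.41% to 15.2% in the other 5 libraries, and the fold changes of single genes in comparisons with VEN are given also without it. Among myeloid markers CD33 (91.3 to 125 CPM), CSF1R (33.0 to 54.4 CPM), FLT3 (838 to 926 CPM) and LYZ (329 to 572 CPM) were present in every library, while CD14 was at 0.407 CPM or less. The T cell markers CD3D, CD3E, CD3G and CD2, the globins HBA1 and HBB and the epithelial marker EPCAM had 0 counts in all 6 libraries. CPM values are counts scaled to library size, here with the trimmed mean of M-values (TMM). Log2 fold changes, their standard errors (SE) and adjusted p-values are from edgeR's quasi-likelihood test over 12690 genes with Benjamini-Hochberg adjustment, and intervals are at 95%.

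The levels of the 10 genes, set per kb of exon so that genes can be compared, spanned several orders of magnitude. TXNIP averaged 30.2 CPM per kb over the 6 libraries (25.2 to 34.1) and CDKN1B 26.2 (22.5 to 29.6), and these ranges overlapped. FOXO3 stood alone below them at 4.11 CPM per kb (3.89 to 4.28). IRS2, at 2.12 CPM per kb (1.86 to 2.63), and CCNG2, at 1.47 (1.08 to 1.97), overlapped each other and lay below FOXO3. The next 4 genes, BNIP3 (0.460 CPM per kb), PIK3IP1 (0.40), KLF2 (0.289) and BCL6 (0.211), overlapped with their neighbors in this order. FOXO1 had the lowest mean, at 0.0127 CPM per kb with no library above 0.0326. This was below every value of BCL6 (lowest 0.0979), but it overlapped with KLF2, which had 0 counts in VEN replicate 2.

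**Figure D1:**
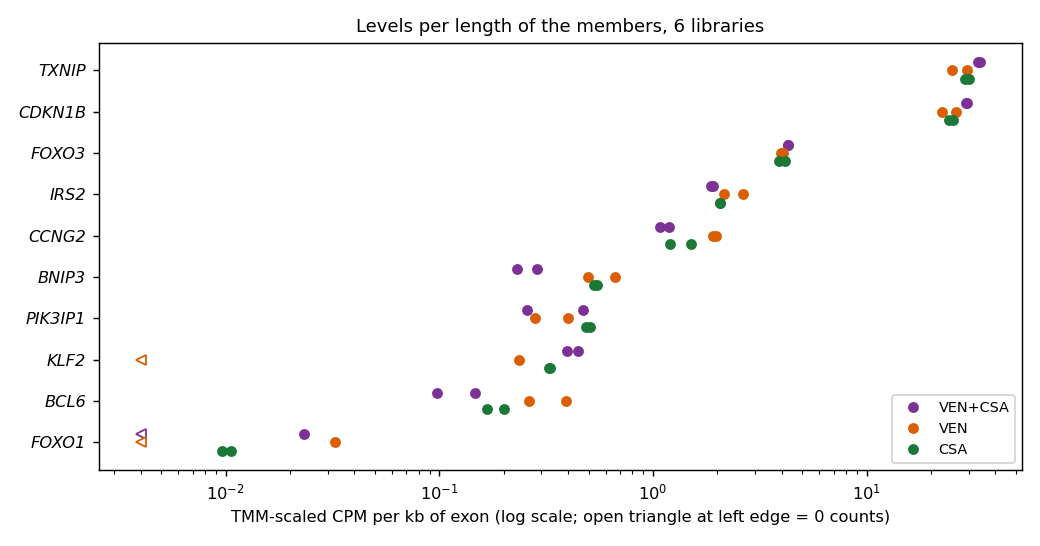
Level per length of the 10 genes in each of the 6 libraries (horizontal axis, TMM-scaled CPM per kb of exon on a log scale), with the groups in color and open triangles for libraries at 0 counts. TXNIP and CDKN1B lie above 22 CPM per kb in every library, FOXO3 near 4, and FOXO1 at 0.0326 or less.

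FOXO1 (chr13:40469953-40666597, minus strand, GRCh38 as are the gene positions that follow) was close to undetected in these cells. It had 0 and 4 counts with VEN+CSA, 6 and 0 with VEN, and 2 and 2 with CSA, and it did not pass the filter on low counts. If counts are independent, a count of 0 allows up to 3 counts, which is 0.090 CPM in VEN+CSA replicate 1 and 0.159 CPM in VEN replicate 2. All FOXO1 counts were even numbers, as were 64.8% to 66.7% of counts of 1 to 20, so this bound may be too low. A difference between groups was therefore not detectable at this depth, and FOXO1 is not counted among the 9 genes tested.

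FOXO3 (chr6:108559835-108684774, plus strand) had 594 to 1102 counts per library and varied little. It was at 33.1 and 32.9 CPM with VEN+CSA, 30.7 and 31.5 CPM with VEN, and 32.0 and 30.04 CPM with CSA. Both VEN+CSA libraries lay above the other 4 by a narrow margin, and VEN and CSA overlapped. Its log2 fold change was 0.09 (SE 0.15, interval −0.29 to 0.46, adjusted p = 0.843) for VEN+CSA against VEN and 0.09 (SE 0.15, interval −0.29 to 0.47, adjusted p = 1) for VEN+CSA against CSA. For VEN against CSA it was 0.01 (SE 0.15, interval −0.37 to 0.38). Without VEN replicate 2 FOXO3 had 0.11 against VEN and −0.02 for VEN against CSA. The upper bound against VEN corresponds to 1.38-fold. A processed pseudogene copy of FOXO3, FOXO3B, has no row of its own in the table, and the sources used here do not say how reads shared with it were counted.

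**Figure D2:**
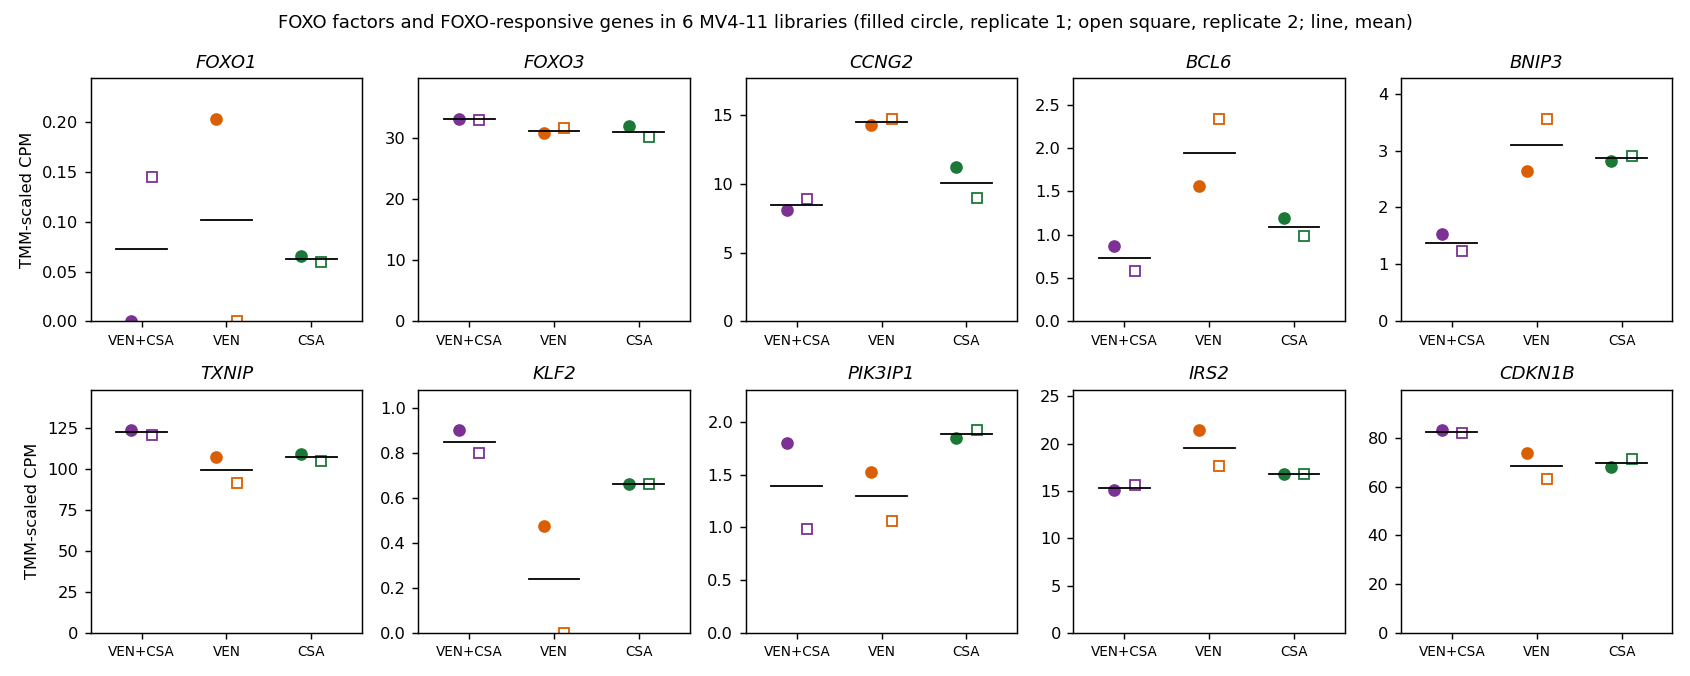
TMM-scaled CPM (vertical axes, from 0) of the 10 genes in each library of the 3 groups, with a line at the mean of each group. CCNG2, BCL6, BNIP3 and IRS2 are lowest in both VEN+CSA libraries, TXNIP, KLF2, CDKN1B and FOXO3 are highest there, and PIK3IP1 overlaps.

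Of the 2 genes of cell cycle arrest, CCNG2 was lowest with VEN+CSA and CDKN1B highest. CCNG2 (chr4:77157151-77433388, plus strand) encodes cyclin G2, an unconventional cyclin linked to arrest and a much-used marker of FOXO activity. It was at 8.07 and 8.87 CPM with VEN+CSA, 14.3 and 14.7 CPM with VEN, and 11.2 and 8.94 CPM with CSA. The 2 VEN libraries were the highest of the 6, and both VEN+CSA libraries were the lowest, though replicate 2 only just below CSA replicate 2. Against VEN, VEN+CSA had a log2 fold change of −0.77 (SE 0.20, interval −1.28 to −0.27, unadjusted p 0.00972, adjusted p = 0.334), and −0.75 without VEN replicate 2. It was −0.25 (SE 0.20, adjusted p = 1) for VEN+CSA against CSA and 0.53 (SE 0.20, interval 0.02 to 1.03, adjusted p = 0.633, and 0.50 without VEN replicate 2) for VEN against CSA. CDKN1B (chr12:12715058-12722371, plus strand) encodes p27, an inhibitor of cyclin-dependent kinases. It was at 83.1 and 82.0 CPM with VEN+CSA, 73.8 and 63.2 CPM with VEN, and 68.1 and 71.5 CPM with CSA. Both VEN+CSA libraries were above the other 4, and VEN and CSA overlapped. VEN+CSA gave a log2 fold change of 0.27 (SE 0.16, interval −0.11 to 0.65, adjusted p = 0.561) against VEN, 0.17 without VEN replicate 2, and 0.24 (SE 0.16, interval −0.14 to 0.63, adjusted p = 1) against CSA.

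BNIP3 (chr10:131966455-131982013, minus strand) had the smallest unadjusted p of the 9 tested members against each single agent. It encodes a receptor on the outer mitochondrial membrane that directs mitochondria to autophagy, and it also responds to hypoxia-inducible factors. It was at 1.53 and 1.24 CPM with VEN+CSA (51 and 34 counts), 2.64 and 3.55 CPM with VEN (78 and 67 counts), and 2.81 and 2.91 CPM with CSA (85 and 97 counts). The VEN+CSA libraries were both below the lowest single-agent library, and VEN and CSA overlapped. VEN+CSA gave a log2 fold change of −1.15 (SE 0.28, interval −1.85 to −0.46, unadjusted p 0.00684, adjusted p = 0.296) against VEN, −0.92 without VEN replicate 2, and −1.04 (SE 0.28, interval −1.73 to −0.35, unadjusted p 0.0102, adjusted p = 1) against CSA. For VEN against CSA it was 0.11 (SE 0.27, interval −0.56 to 0.78) and −0.12 without VEN replicate 2.

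TXNIP (chr1:145992435-145996600, minus strand), which encodes an arrestin-like protein that binds thioredoxin and limits glucose uptake and had the highest mean level per length, was highest with VEN+CSA. It was at 124 and 121 CPM with VEN+CSA, 107 and 91.4 CPM with VEN, and 109 and 105 CPM with CSA. Both VEN+CSA libraries were the highest, and VEN and CSA overlapped. Its log2 fold change was 0.30 (SE 0.16, interval −0.08 to 0.68, adjusted p = 0.532) against VEN, 0.19 without VEN replicate 2, and 0.19 (SE 0.16, interval −0.19 to 0.57, adjusted p = 1) against CSA. Within the promoter windows searched above, TXNIP was the only 1 of the 10 genes with GTAAACA upstream of the start. At any position, 3.42% of all windows held these letters.

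The 2 members that act on PI3K itself had log2 fold changes with intervals that include 0 in every comparison of the main edgeR fit. IRS2 (chr13:109752698-109786568, minus strand), an adaptor that joins insulin and cytokine receptors to PI3K, was at 15.1 and 15.6 CPM with VEN+CSA, 21.4 and 17.6 CPM with VEN, and 16.8 and 16.8 CPM with CSA. Both VEN+CSA libraries were the lowest and both VEN libraries the highest. The difference in log2 was −0.35 (SE 0.19, interval −0.80 to 0.11, adjusted p = 0.540) against VEN, −0.48 without VEN replicate 2, and −0.13 (SE 0.19, interval −0.59 to 0.33, adjusted p = 1) against CSA. With each library's trend with GC content removed, IRS2 had −0.52 against VEN (SE 0.15, unadjusted edgeR p 0.0128, adjusted p = 0.207). PIK3IP1 (chr22:31281593-31292534, minus strand), a membrane protein that binds the catalytic subunit of PI3K and restrains it, was at 1.80 and 0.981 CPM with VEN+CSA (60 and 27 counts), 1.53 and 1.06 CPM with VEN (45 and 20 counts), and 1.85 and 1.92 CPM with CSA (56 and 64 counts). VEN+CSA and VEN overlapped, and both lay below the 2 CSA libraries. Its log2 fold change with VEN+CSA was 0.10 against VEN (SE 0.40, interval −0.90 to 1.09), −0.12 without VEN replicate 2, and −0.43 (SE 0.39, interval −1.40 to 0.54) against CSA.

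Among the 2 transcription factors in the list other than FOXO1 and FOXO3, BCL6 was lowest with VEN+CSA and KLF2 highest, and both had few counts. BCL6 (chr3:187721377-187745727, minus strand), a transcriptional repressor raised by FOXO factors in leukemia and lymphoid cells, was at 0.870 and 0.582 CPM with VEN+CSA (29 and 16 counts), 1.56 and 2.33 CPM with VEN (46 and 44 counts), and 1.19 and 0.990 CPM with CSA (36 and 33 counts). The 3 groups did not overlap, with VEN highest and VEN+CSA lowest. With VEN+CSA the log2 fold change was −1.40 (SE 0.39, interval −2.37 to −0.43, unadjusted p 0.0124, adjusted p = 0.354) against VEN, −1.08 without VEN replicate 2, and −0.57 (SE 0.39, interval −1.54 to 0.39, adjusted p = 1) against CSA. VEN against CSA gave 0.82 (SE 0.38, interval −0.11 to 1.76, adjusted p = 0.633), and 0.51 without VEN replicate 2. KLF2 (chr19:16324817-16327874, plus strand), a zinc finger factor of quiescence in lymphocytes and endothelium, had 30 and 22 counts with VEN+CSA, 14 and 0 with VEN, and 20 and 22 with CSA. These are 0.900 and 0.80 CPM with VEN+CSA, 0.475 and 0 CPM with VEN, and 0.661 and 0.660 CPM with CSA. The 3 groups did not overlap, with VEN+CSA highest and VEN lowest. The fitted log2 fold change against VEN, 1.66 (SE 0.94, adjusted p = 0.557), rests on the 0 in VEN replicate 2 and was 0.84 (SE 0.47, adjusted p = 0.451) without that library. Against CSA it was 0.36 (SE 0.84, adjusted p = 1).

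**Figure D3:**
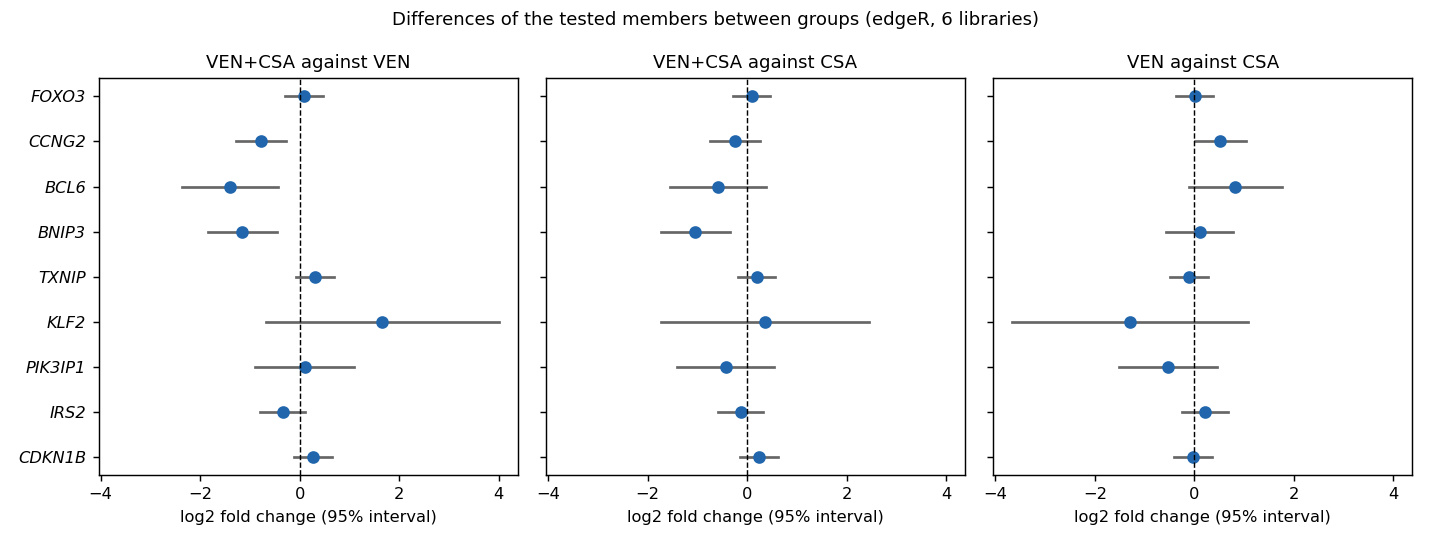
Log2 fold change (horizontal axis) of the 9 tested members in the 3 comparisons, with 95% intervals from edgeR as lines. The intervals of CCNG2, BCL6 and BNIP3 lie below 0 for VEN+CSA against VEN, that of BNIP3 alone for VEN+CSA against CSA, and that of CCNG2 alone above 0 for VEN against CSA.

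No member passed adjusted p under 0.05 by edgeR in any of the 3 comparisons, and in each of them edgeR called 0 of 12690 genes (0%). At an unadjusted p under 0.05, 3 of 9 members were lower with VEN+CSA than with VEN (CCNG2, BCL6 and BNIP3), where 5.48% of all tested genes were, and 0 were higher, where 5.33% were (1372 genes or 10.8% in all). Against CSA 1 of 9 was lower with VEN+CSA (BNIP3), where 1.69% were, and 0 higher, where 1.95% were (462 genes or 3.64%). For VEN against CSA 1 was higher (CCNG2), where 2.34% were, and 0 lower, where 2.46% were (609 genes or 4.8%). DESeq2 called 0 members in each comparison, against 311 genes (2.45%) for VEN+CSA against VEN, 60 genes (0.473%) for VEN+CSA against CSA and 63 genes (0.496%) for VEN against CSA. Limma-voom called 0 members and 0, 1 and 0 genes in the same order. Without VEN replicate 1, which leaves the library with 41.5% mitochondrial counts as the only VEN sample, edgeR called 5 members for VEN+CSA against VEN (CCNG2, BCL6 and BNIP3 lower, TXNIP and KLF2 higher, KLF2 against a lone library at 0 counts), where it called 26.4% of all genes, and 1 (KLF2) for VEN against CSA, where it called 33.8%. Without VEN replicate 2 it called 0 members. The comparisons share libraries, so their values for a member are not independent of each other. In bulk RNA, more RNA in each cell and more cells with the RNA cannot be told apart.

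Signs were mixed among the members. Between VEN+CSA and VEN 5 of the 9 tested had a positive log2 fold change, where 49.1% of all genes did, and 4 a negative one, where 50.9% did, with a median of 0.08 against −0.01 over all genes. The member median was −0.12 without VEN replicate 2. For VEN+CSA against CSA the split was 4 to 5 (all genes 49.7% and 50.3%), with a median of −0.13, and for VEN against CSA 5 to 4 (all genes 49.8% and 50.2%), with a median of 0.01, where the median of all genes was 0.00 in both. In 4 members (FOXO3, TXNIP, KLF2 and CDKN1B) both VEN+CSA libraries lay above all 4 single-agent libraries, where 10.5% of all tested genes did. In 4 others (CCNG2, BCL6, BNIP3 and IRS2) both lay below all of them, where 9.73% did, so 8 of 9 were outside in one direction or the other, where 20.2% of all genes were. PIK3IP1 was the only tested member without such a separation. Some of the separations were narrow. CCNG2 was at 8.87 CPM in VEN+CSA replicate 2 and 8.94 CPM in CSA replicate 2. FOXO3 was at 32.9 CPM in VEN+CSA replicate 2 and 32.0 CPM in CSA replicate 1. KLF2 had 22 counts in both VEN+CSA replicate 2 and CSA replicate 2, and only the scaling set these libraries apart (0.80 and 0.660 CPM). The members were also chosen with earlier results of these data known. Scaled by library size alone, 6 members were outside, where 17.6% of genes were, since FOXO3 and IRS2 then overlapped with single-agent libraries. With the GC trend removed 7 were outside, where 25.2% of genes were, and IRS2 overlapped. With 1 library left out 8 or 9 members were outside, but so were more of all genes: 39% without VEN replicate 2, 39.6% without VEN+CSA replicate 2, 35.1% without VEN+CSA replicate 1, and 22.5% to 26.9% without any 1 of the other 3.

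The other FOXO factor genes, FOXO4 and FOXO6, were both expressed. FOXO4 was at 16.4 and 18.5 CPM with VEN+CSA, 17.8 and 19.9 CPM with VEN, and 17.1 and 16.2 CPM with CSA, so VEN+CSA overlapped with both single agents (log2 fold change −0.12, SE 0.18, against VEN, or −0.03 without VEN replicate 2, and 0.06, SE 0.18, against CSA). FOXO6 was at 0.960 and 0.872 CPM with VEN+CSA, 0.542 and 1.11 CPM with VEN, and 0.727 and 0.660 CPM with CSA, with 16 to 32 counts per library. By the rule set for likeness, the genes whose log2 CPM over the 6 libraries was closest to that of FOXO3 among 9875 genes with a mean of at least 5 CPM were BRD8, a chromatin reader of the NuA4 complex, GFM1, a mitochondrial translation factor, and NOMO2, an ER membrane protein with near-identical copies in the genome. Their root mean square differences from FOXO3 were 0.0229, 0.0280 and 0.0286 on the log2 scale, after centering each gene. Like FOXO3 they varied little, at 63.1 to 69.8 CPM for BRD8, 99.1 to 110 CPM for GFM1 and 215 to 237 CPM for NOMO2. The match is therefore one of flat values, and shared regulation was not tested.

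Of 36 further genes known as FOXO-responsive in various tissues, 25 were tested and edgeR called 0 of them in any comparison. Against VEN, with VEN+CSA 11 had a positive and 14 a negative log2 fold change. Their median was −0.03, or −0.10 without VEN replicate 2, against −0.01 over all genes. At unadjusted p under 0.05 by edgeR, 3 were higher and 4 lower, where 5.33% and 5.48% of all tested genes were. For VEN+CSA against CSA the split was 14 to 11 (median 0.06), with 1 higher and 2 lower at that p, where 1.95% and 1.69% were. For VEN against CSA it was 14 to 11 (median 0.11, or 0.09 without VEN replicate 2). There 2 were higher and 0 lower, where 2.34% and 2.46% were. The median of all genes was 0.00 in both comparisons with CSA. The 11 not tested, among them PCK1, G6PC1, IGFBP1, PDK4 and FASLG, had at most 8 counts in any library.

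SESN3, a sestrin that restrains mTOR complex 1, gave the largest difference from VEN in this list. It was at 5.28 and 5.93 CPM with VEN+CSA, 15.3 and 28.9 CPM with VEN, and 9.39 and 11.7 CPM with CSA. The 3 groups did not overlap, in the order seen for BCL6. The log2 fold change was −1.98 (SE 0.35, adjusted p = 0.188) for VEN+CSA against VEN, −1.44 (adjusted p = 0.0816) without VEN replicate 2, and −0.91 (SE 0.34, adjusted p = 1) against CSA, and DESeq2 called the first of these (adjusted p = 4.52e-05). For VEN against CSA it was 1.06 (SE 0.34, adjusted p = 0.633), and 0.53 without VEN replicate 2. DEPP1, a small protein induced by FOXO3 and tied to autophagy, had the same order at lower level, with 1.41 and 1.31 CPM with VEN+CSA, 3.08 and 2.76 CPM with VEN, and 2.25 and 2.04 CPM with CSA (−1.10, SE 0.25, adjusted p = 0.266, against VEN, and −0.65, SE 0.25, adjusted p = 1, against CSA). BCL2L11, the BH3-only death protein BIM, was highest with VEN+CSA, at 59.6 and 21.2 CPM with VEN+CSA, 13.8 and 18.7 CPM with VEN, and 10.1 and 6.63 CPM with CSA. Its 2 VEN+CSA libraries differed widely. EdgeR gave adjusted p = 0.963 for a log2 fold change of 2.27 (SE 0.54) against CSA, while DESeq2 gave adjusted p = 0.00263. Against VEN edgeR gave 1.32 (SE 0.52, adjusted p = 0.450), and 1.56 without VEN replicate 2. FBXO32, the muscle ubiquitin ligase atrogin-1, was at 4.83 and 4.54 CPM with VEN+CSA, 2.64 and 1.96 CPM with VEN, and 2.81 and 3.60 CPM with CSA (1.02, SE 0.27, adjusted p = 0.333, against VEN). IL7R, the interleukin-7 receptor chain, was highest with VEN, at 9.84 and 11.9 CPM with VEN+CSA, 15.7 and 20.7 CPM with VEN, and 8.69 and 9.57 CPM with CSA (−0.74, SE 0.23, adjusted p = 0.387, for VEN+CSA against VEN, and 0.99, SE 0.23, adjusted p = 0.633, for VEN against CSA). RICTOR (−0.83, SE 0.39), of mTOR complex 2, was among the 4 genes with the smallest p for VEN+CSA against CSA. CITED2 (1.19, SE 0.53, and 0.17 without VEN replicate 2) and RAG1 (1.03, SE 0.43, and 0.65 without it) were among the 4 for VEN against CSA. Without VEN replicate 2 the values for VEN+CSA against VEN were −1.17 for DEPP1, 0.83 for FBXO32 and −0.52 for IL7R, and IL7R had 0.77 for VEN against CSA.

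**Figure D4:**
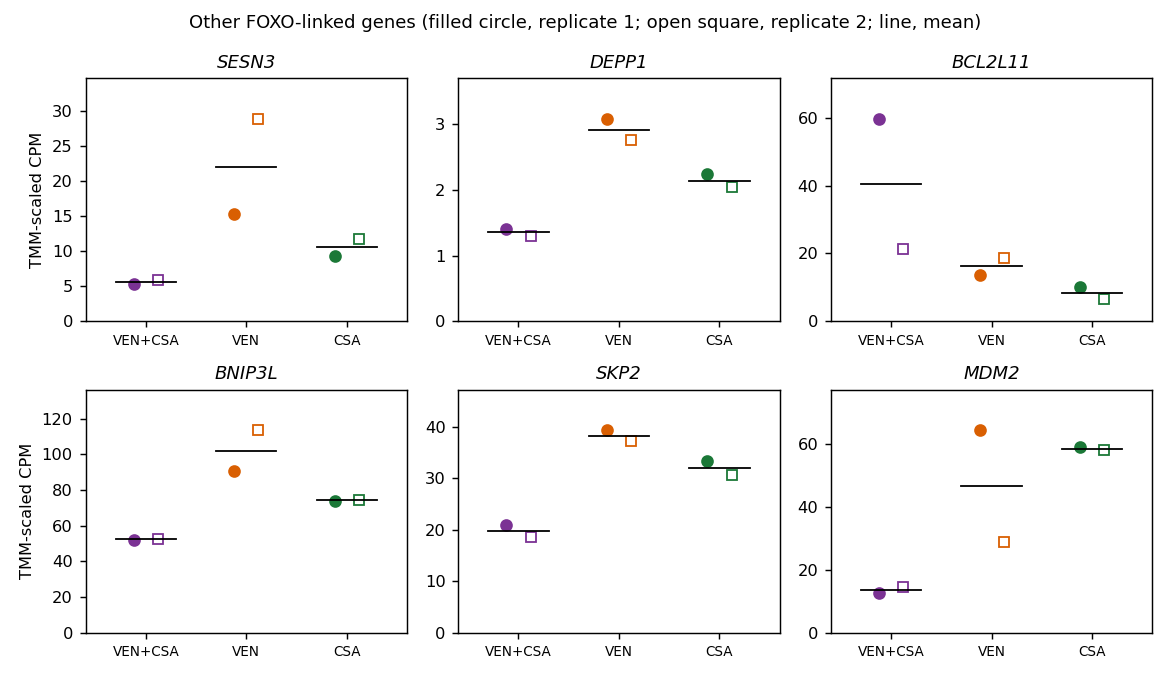
TMM-scaled CPM (vertical axes, from 0) in each library for 6 genes linked to FOXO factors or to a member, chosen for the plot after their values were seen, with a line at the mean of each group. SESN3, DEPP1, BNIP3L, SKP2 and MDM2 are lowest in both VEN+CSA libraries, and BCL2L11 is highest there with its replicates at 59.6 and 21.2 CPM.

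All 25 genes listed as controllers of FOXO proteins were tested, and edgeR called 0 with all 6 libraries. With VEN+CSA against VEN 6 had a positive and 19 a negative log2 fold change, with a median of −0.19 against −0.01 over all genes and −0.17 without VEN replicate 2. Against CSA the split was 11 to 14 (median −0.04), and for VEN against CSA 17 to 8 (median 0.17), where all genes were at 0.00. Of the kinases, AKT1 overlapped between VEN+CSA and VEN, at 117 and 144 CPM with VEN+CSA, 130 and 73.8 CPM with VEN, and 130 and 128 CPM with CSA. AKT2 was at 103 and 126 CPM with VEN+CSA, 145 and 135 CPM with VEN, and 145 and 154 CPM with CSA (−0.29, SE 0.17, adjusted p = 0.561, against VEN, or −0.34 without VEN replicate 2, and −0.38, SE 0.17, adjusted p = 1, against CSA). SGK1, a related kinase, had 4 to 20 counts. STK4, the kinase MST1 that activates FOXO proteins under stress, had a log2 fold change of −0.54 (SE 0.17, adjusted p = 0.387) against VEN, and −0.49 without VEN replicate 2. EP300 and STK3 for VEN against CSA, with 0.75 and 0.59, and the 14-3-3 gene YWHAH for VEN+CSA against VEN, with −0.48, also stood among the smallest p, and without VEN replicate 2 these values were 0.17, 0.16 and −0.26.

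Of the 3 ubiquitin ligase genes in this list, SKP2 and MDM2 were lowest with VEN+CSA, and STUB1 overlapped with VEN. SKP2, which directs the degradation of p27 and of FOXO1, was at 20.9 and 18.6 CPM with VEN+CSA, 39.3 and 37.2 CPM with VEN, and 33.2 and 30.6 CPM with CSA. The 3 groups did not overlap. SKP2 had a log2 fold change of −0.95 (SE 0.17, adjusted p = 0.188, and −0.99 without VEN replicate 2) against VEN and −0.69 (SE 0.16, adjusted p = 0.963) against CSA, and DESeq2 called the first (adjusted p = 0.000675). MDM2, the ligase of p53 that also ubiquitinates FOXO proteins, was at 12.5 and 14.7 CPM with VEN+CSA, 64.2 and 28.7 CPM with VEN, and 58.8 and 57.9 CPM with CSA. Both VEN+CSA libraries were the lowest, and VEN replicate 2 lay between them and the other 3. MDM2 had a log2 fold change of −1.78 (SE 0.39, adjusted p = 0.256) against VEN and −2.10 (SE 0.39, adjusted p = 0.708) against CSA with all 6 libraries. Without VEN replicate 2 the log2 fold change of MDM2 was −2.24 against VEN, then a lone library at 64.2 CPM, and −2.11 against CSA. The spread between VEN libraries is not measured in that setting. DESeq2 called MDM2 in both comparisons with all 6 libraries (adjusted p = 0.00101 against VEN and 7.76e-05 against CSA). STUB1 was at 56.0 and 46.6 CPM with VEN+CSA, 68.5 and 36.5 CPM with VEN, and 71.2 and 61.9 CPM with CSA.

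Among genes that control members by routes other than FOXO factors, 18 of 19 were tested, and edgeR called 0. For VEN+CSA against VEN 6 had a positive and 12 a negative log2 fold change (median −0.23, all genes −0.01), but the median was −0.02 without VEN replicate 2. Against CSA the split was 12 to 6 (median 0.04), and for VEN against CSA 14 to 4 (median 0.23, and 0.03 without VEN replicate 2). MLXIP, which encodes MondoA, the glucose-sensing activator of TXNIP, was at 102 and 99.5 CPM with VEN+CSA, 99.2 and 150 CPM with VEN, and 102 and 96.4 CPM with CSA. ARRDC4, a further MondoA target and relative of TXNIP, was at 29.3 and 26.8 CPM with VEN+CSA, 22.2 and 31.6 CPM with VEN, and 20.8 and 22.4 CPM with CSA. VEN+CSA was above CSA in both libraries for ARRDC4 (0.38, SE 0.22, adjusted p = 1), while VEN overlapped with VEN+CSA. HIF1A, which raises BNIP3 under low oxygen, was at 73.9 and 96.2 CPM with VEN+CSA, 74.5 and 179 CPM with VEN, and 69.5 and 78.5 CPM with CSA, overlapping throughout. EPAS1, its relative HIF-2 alpha, was at 2.07 and 1.71 CPM with VEN+CSA, 0.780 and 0.902 CPM with VEN, and 1.88 and 1.47 CPM with CSA (1.17, SE 0.32, adjusted p = 0.347, for VEN+CSA against VEN, or 1.28 without VEN replicate 2). CCNE2, a cyclin partner of CDK2, the kinase that p27 inhibits, had a log2 fold change of −0.62 (SE 0.21, adjusted p = 0.416) for VEN+CSA against VEN, and −0.38 without VEN replicate 2. CDK2 had −0.28 (SE 0.15, adjusted p = 1) against CSA. ARNT, the partner of HIF1A, and MEF2A, an activator of KLF2, had −0.48 and −0.78 for VEN+CSA against VEN, and −0.19 and −0.19 without VEN replicate 2. VHL and CUL1, subunits of ubiquitin ligases, had 0.19 and 0.21 for VEN+CSA against CSA, and CUL1 had 0.59 for VEN against CSA, or 0.31 without VEN replicate 2.

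Of 6 close relatives of the members, 4 were tested. BNIP3L, also called NIX, the mitophagy receptor most like BNIP3, showed the same order of VEN+CSA below both single agents at a level with far more counts (1448 to 2668). It was at 52.0 and 52.6 CPM with VEN+CSA, 90.4 and 113 CPM with VEN, and 74.0 and 74.5 CPM with CSA. The 3 groups did not overlap. The log2 fold change was −0.96 (SE 0.17, interval −1.38 to −0.54, adjusted p = 0.188) against VEN, −0.79 (SE 0.10, adjusted p = 0.0733) without VEN replicate 2, and −0.51 (SE 0.17, interval −0.92 to −0.09, adjusted p = 1) against CSA. DESeq2 called BNIP3L against VEN (adjusted p = 0.000884). CCNG1, cyclin G1, a p53 target and relative of CCNG2, was at 37.7 and 53.4 CPM with VEN+CSA, 41.8 and 119 CPM with VEN, and 39.3 and 38.8 CPM with CSA. Its high value was in VEN replicate 2, and the log2 fold change against VEN was −0.81 with that library and 0.13 without it. TXN, the thioredoxin that TXNIP binds, was at 192 and 209 CPM with VEN+CSA, 152 and 234 CPM with VEN, and 166 and 167 CPM with CSA. ARRDC3, an arrestin-like relative of TXNIP, was at 1.17 and 1.78 CPM with VEN+CSA, 1.19 and 0.849 CPM with VEN, and 1.79 and 1.71 CPM with CSA, and overlapped in both comparisons with VEN+CSA.

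**Figure D5:**
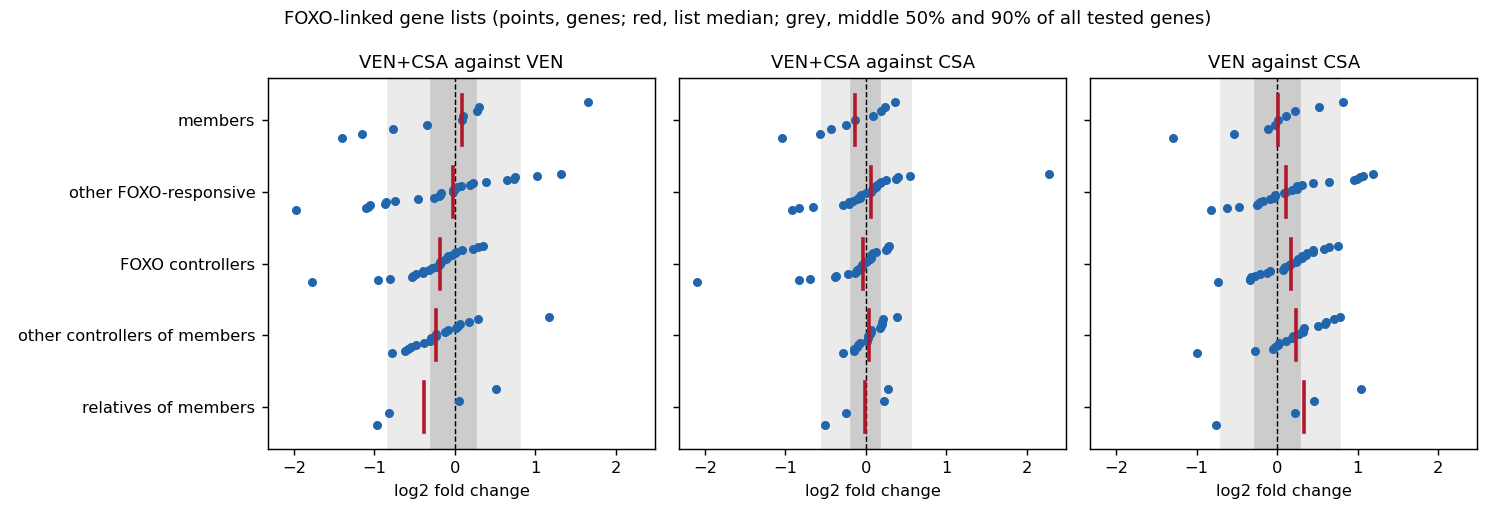
Log2 fold change (horizontal axis) of each tested gene in the member list and 4 wider lists for the 3 comparisons, with the list median in red and the middle 50% and 90% of all tested genes in grey. The member median is 0.08, −0.13 and 0.01. Single genes such as SESN3, MDM2 and BCL2L11 lie outside the grey bands in both comparisons of VEN+CSA. For VEN against CSA MDM2 lies within the 90% band.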

How the data were processed

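Gene counts of 6 RNA-seq libraries were used, grouped by their titles: VEN+CSA, VEN and CSA with 2 each. What the authors deposited are unnormalized counts, whole numbers per Ensembl gene. Their pipeline, per the submitters' processing notes, involved the tools STAR, RSEM and DESeq2 and the build hg38; the sources used here give neither versions nor the strand setting. A further 2 columns of the table match no sample label and were not used. Among counts of 1 to 20, 64.8% to 66.7% were even numbers, against 49.0% to 51.0% of counts of 100 or more. Symbols came from a symbol table that matched 20148 of 20263 identifiers. Exon lengths came from GENCODE release 29 (GRCh38), which may not be the annotation the authors counted on. FOXO1 shares a short exon stretch with LINC00598, and BCL6, PIK3IP1 and IRS2 with antisense genes, so reads there cannot be assigned with certainty.

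Genes passing filterByExpr (12690) were scaled by TMM. The quasi-likelihood test of edgeR 4.0.16 (glmQLFit with robust estimation, glmQLFTest, two-sided, R 4.3.3) used 1 fit over the 3 groups, which left 3 residual degrees of freedom. P-values were adjusted by Benjamini-Hochberg over all tested genes at a threshold of 0.05. The standard error is the log2 fold change divided by the square root of F. Alternatives were DESeq2 1.42.0, limma-voom (limma 3.58.1), other scalings and filters, a replicate block, and each library left out in turn. A sample left alone in its group was then assumed to vary like the other groups. Removal of each library's GC trend (loess, span 0.3) and the settings that join 2 changes were added after seeing the data. The code was tested on simulated counts. The members and lists were chosen with earlier results of these data known. Named genes outside the members are the 4 with the smallest p per list and comparison and 11 named whatever their values, of which 1 is not reported here; STUB1 was added after its values were seen. Promoter sequences are RefSeq's (GRCh38.p14).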

Additional observations from a re-analysis of the deposited data

How the results depend on the processing

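All 27 member values (9 members in 3 comparisons) kept their direction and stayed uncalled with DESeq2, limma-voom, RLE scaling, only the 4 libraries compared, mitochondrially encoded genes removed, a minimum fold change of 1.5 and a replicate block. With the replicate number as a block, 0 members and 0 genes were called in each comparison. Deviations of same-numbered libraries correlated at 0.164 to 0.252, but 2 numbers do not show pairing. The cause of the differences that follow was not tested.

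For VEN+CSA against VEN, DESeq2 called 311 genes (4 of the wider lists), edgeR without a filter on low counts 15, with the GC trend removed 39 (1), with that and without VEN replicate 2 66 (1), and DESeq2 without VEN replicate 2 490 (4). Leaving out 1 library gave 0 to 5 members, 0 to 28 list genes and 0 to 3426 genes, the highest each time without VEN replicate 1. For VEN+CSA against CSA the counts were 60 (2) with DESeq2, 1 with limma-voom, 4 without the filter, 24 (1) with only the 4 libraries compared, 26 (1) with the GC trend and VEN replicate 2 removed, and 256 (5) with DESeq2 without VEN replicate 2. Leaving out 1 library gave 0 to 0 members, 0 to 1 list genes and 0 to 24 genes. For VEN against CSA they were 63 with DESeq2, 2 without the filter and 107 with DESeq2 without VEN replicate 2, and 0 to 1 members, 0 to 30 list genes and 0 to 4385 genes with 1 library left out.

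PIK3IP1 changed sign for VEN+CSA against VEN, at −0.01 with the GC trend removed, −0.16 with that and without VEN replicate 2, −0.13 with DESeq2 without VEN replicate 2, and −0.41 to 0.47 with 1 library left out. The other reversals were in VEN against CSA. Library size scaling, which moved the median of all genes to −0.31 there, gave −0.31 for FOXO3, −0.25 for BNIP3 and −0.06 for IRS2. FOXO3 was 0.00 without the filter, −0.02 with DESeq2 without VEN replicate 2, and −0.04 to 0.05 with 1 library left out. BNIP3 was −0.05 with the GC trend and VEN replicate 2 removed, −0.12 with DESeq2 without VEN replicate 2, and −0.12 to 0.31 with 1 left out. TXNIP was 0.00 and CDKN1B 0.10 with the GC trend and VEN replicate 2 removed. CDKN1B was 0.08 with DESeq2 without VEN replicate 2 and −0.15 to 0.08 with 1 left out. Depth limits BCL6, KLF2, PIK3IP1 and BNIP3, which had fewer than 100 counts in every library, and FOXO1, which could not be tested.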
